A study of Gallus gallus with 6 samples.

Results

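The Frizzled family comprises the seven-pass membrane receptors that bind secreted Wnt proteins. Its members were taken as all genes in the deposited expression table whose symbol is FZD followed by a number, which gave 8 of the 17108 genes listed (FZD1, FZD2, FZD3, FZD4, FZD6, FZD7, FZD8 and FZD10). FZD5 and FZD9, which the RefSeq table of chicken genes also names, have no entry under their symbols and were not analysed here. Transcripts were measured by RNA-seq in 3 libraries from ceca and 3 libraries from the region the labels call interceca, both dissected from the guts of chick embryos at embryonic day 5 (Hamburger-Hamilton stage 26), with no treatment or genotype named. The ceca are paired blind outgrowths of the gut, and the title of the series ties them to hindgut enteric nervous system development and to non-canonical Wnt signalling. Whether each library stands for its own embryo or for a pool is not in the labels, and the spread that enters the p-values may therefore be technical.

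A Frizzled receptor holds its Wnt ligand in an extracellular cysteine-rich domain and passes the signal to the cytoplasmic protein Dishevelled. Together with the co-receptors LRP5 or LRP6 this stabilises β-catenin, the canonical pathway, while with ROR2, RYK or the planar polarity proteins it acts on cell shape and movement, the non-canonical pathways. By sequence the vertebrate receptors fall into subfamilies, of which FZD1, FZD2 and FZD7 form one, FZD4, FZD9 and FZD10 another, FZD5 and FZD8 another, and FZD3 and FZD6 the last. In the gut, Wnt signals pass between the mesenchyme and the epithelium during outgrowth and regional patterning.

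Reads recovered from the deposited values came to between 15681325 and 22705324 per library. GDNF, EDN3 and FGF10, known as signals of the cecal mesenchyme, were all higher in ceca, with a sum of 139.8 to 152 RPKM in ceca and 58.5 to 61.1 RPKM in interceca. RPKM, reads scaled by gene length and by library size, is the unit of all levels below. Fold changes set ceca over interceca as differences of log2(RPKM + 0.5), with standard error (SE) and a p-value from limma adjusted over all 10678 genes tested by the method of Benjamini and Hochberg, with a threshold of 0.05. On this scale GDNF, EDN3 and FGF10 had log2 fold changes of 1.3 ± 0.11, 0.79 ± 0.07 and 1.43 ± 0.1 (SE). Each was called higher in ceca, as were 13.5% of all genes tested. All 8 Frizzled genes had at least 1 RPKM in all 6 libraries, so none entered the test through one tissue alone.

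The ceca and the interceca held the same 8 Frizzled transcripts at different levels. FZD4 and FZD10 were more than 3-fold higher in ceca, FZD7 was 2.04-fold lower, FZD6 and FZD2 were higher by smaller amounts, and FZD1, FZD3 and FZD8 did not pass the threshold. Thus 5 of the 8 members passed, against 27.5% of all genes tested, 4 of them as higher in ceca (13.5% of all genes) and 1 as lower (14.1% of all genes). The change was at least 2-fold in 3 members, against 6.61% of all genes tested that were called with such a change. In 6 members, including FZD8, the 3 libraries of one tissue all lay above those of the other, which was so for 44.1% of all genes tested. The median log2 fold change was 0.16 over the members and 0.01 over all genes tested.

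**Figure D1:**
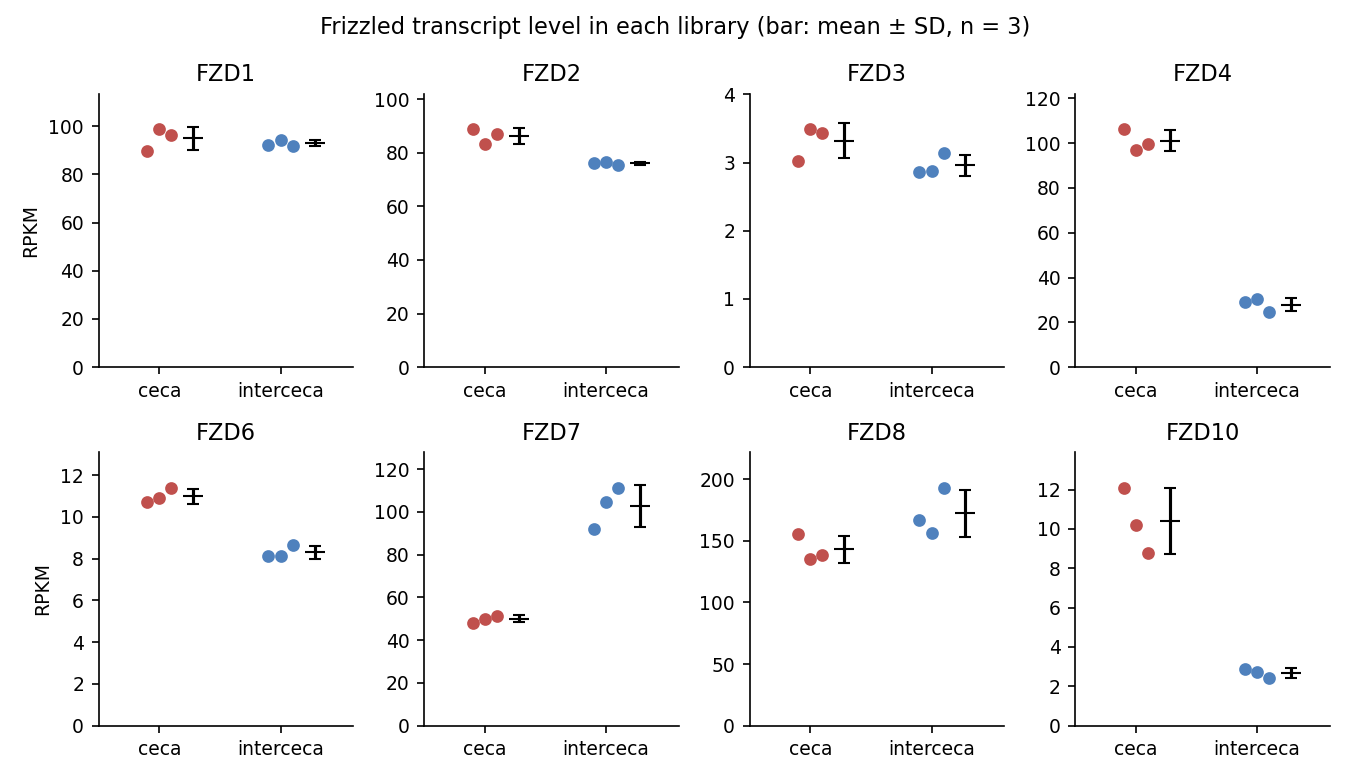
Transcript level in RPKM of each Frizzled gene, 1 panel a gene, with each point a library (ceca left, interceca right) and the bar beside the points the mean ± SD of 3 libraries. FZD4 and FZD10 stand well above interceca in all 3 ceca libraries, FZD7 stands well below it, and the libraries of both tissues overlap for FZD1 and FZD3.

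FZD4 (ENSGALG00000017242) binds both Wnt proteins and norrin, a ligand outside the Wnt family, and is best known for its part in blood vessel growth in the retina. Its level was 106, 97.0 and 99.8 RPKM in ceca, against 29.1, 30.2 and 24.5 RPKM in interceca. Every ceca library stood far above every interceca library. The log2 fold change was 1.84 ± 0.08 (SE, adjusted p = 6.02e-06, limma), a 3.58-fold difference, and 1.78% of the genes tested had a larger change in either direction. The values rest on 8183 to 8431 reads in ceca and 1730 to 2280 in interceca. Because the samples are bulk tissue, fewer cells of a type and less RNA per cell cannot be told apart, here and in the results that follow. Of the 11 endothelial markers tested, 3 were higher in ceca, against 13.5% of all genes tested, and the other 8 missed the threshold, and their summed level of 157.8 to 175 RPKM in ceca overlapped the 136 to 169 RPKM in interceca. The call of CDH5 (adjusted p = 0.0482, limma) held without interceca replicate 2 (0.0357). It was lost without any other single library (0.0613 to 0.122). That of FLT1 (0.0187) held without ceca replicate 2 (0.0483) or interceca replicate 2 (0.0277). It was lost without any other single library (0.0563 to 0.0642). FLT4 (0.00795) kept its call, with at most 0.0306.

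FZD10 (ENSGALG00000002652), a receptor of the same subfamily as FZD4 and able to signal through β-catenin, was far less abundant but was also more than 3-fold higher in ceca. Its level was 12.1, 10.2 and 8.78 RPKM in ceca, against 2.87, 2.74 and 2.41 RPKM in interceca. The tissues did not overlap, and the 3 ceca libraries spread more widely than those of interceca. The log2 fold change was 1.77 ± 0.13 (SE, adjusted p = 5.64e-05, limma). It was counted on 337 to 443 reads in ceca and 80 to 98 in interceca, and its 80 reads in interceca replicate 1 were the smallest count of any member. In ceca replicate 1 FZD3 had fewer reads, at 336. The ratio of FZD10 to FZD4 within a library was 0.114, 0.105 and 0.088 in ceca, and 0.0988, 0.0909 and 0.0984 in interceca, and the tissues overlapped.

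FZD7 (ENSGALG00000023536) belongs with FZD1 and FZD2 and is known in the mouse as a Wnt receptor of intestinal epithelial stem cells. Its level was 48.2, 50.1 and 51.4 RPKM in ceca, against 91.8, 105 and 111 RPKM in interceca. Every ceca library lay well below every interceca library, and FZD7 was the member that fell. The log2 fold change was -1.03 ± 0.07 (SE, adjusted p = 4.43e-05, limma). Its reads numbered 3057 to 3541 in ceca and 4440 to 7862 in interceca. Most markers of epithelium and smooth muscle were also lower in ceca, while 14.1% of all genes tested were called lower and 13.5% higher. The 9 epithelial markers tested split into 7 that fell in ceca, 1 that rose and 1 that missed the threshold, with a sum of 141 to 218 RPKM in ceca and 529.9 to 809.8 RPKM in interceca, and KRT8 and KRT18 were listed at 0 in all 6 libraries. Of the 8 smooth muscle markers tested, 7 fell in ceca and 1 missed the threshold, with a sum of 217 to 246 RPKM in ceca and 517 to 542 RPKM in interceca. Their part in the difference in FZD7 was not tested.

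FZD2 (ENSGALG00000008433) can act as a receptor of WNT5A. Its level was 88.8, 83.1 and 87.0 RPKM in ceca, against 76.3, 76.4 and 75.3 RPKM in interceca. The tissues did not overlap, but the gap was small beside that of its relative FZD7. The log2 fold change was 0.18 ± 0.04 (SE, adjusted p = 0.0151, limma). Leaving out ceca replicate 3 gave FZD2 an adjusted p of 0.0633, in a range of 0.00937 to 0.0633 over the alternatives tried. In the authors' deposited table FZD2 has an adjusted p of 0.0479 (edgeR).

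FZD1 (ENSGALG00000009064), the remaining gene of that subfamily, was at 89.6, 98.7 and 96.4 RPKM in ceca and at 92.3, 94.4 and 91.9 RPKM in interceca. The ceca libraries lay on both sides of those of interceca. Its log2 fold change was 0.03 ± 0.05 (SE, adjusted p = 0.694, limma), with a 95% interval of -0.08 to 0.14, so a change of the size seen in FZD7 lies outside the interval. Within the subfamily FZD1, FZD2 and FZD7 had log2 fold changes of 0.03, 0.18 and -1.03.

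FZD8 (ENSGALG00000028487), a high-affinity Wnt receptor in biochemical work, had the highest RPKM of the family in both tissues. Its level was 155.6, 135 and 138 RPKM in ceca, against 167, 156.3 and 193 RPKM in interceca. The highest ceca library lay just below the lowest interceca library. The log2 fold change was -0.26 ± 0.09 (SE) with an adjusted p of 0.0548 in limma, just outside the threshold. FZD8 passed in 5 of the 16 alternatives, among them the fit with the replicate block (adjusted p = 0.0235), limma-voom on recovered reads (0.0381) and the fits without ceca replicate 1 (0.0336) or interceca replicate 2 (0.0385), in a range of 0.0235 to 0.159. In the authors' deposited table FZD8 has a log2 fold change of -0.27 and an adjusted p of 0.0217.

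The level of FZD8 also rests on an unusual gene model. The RPKM steps gave the gene length the authors used, which was 626 bases for FZD8, against 1601 bases for FZD2, 1757 for FZD10, 2311 for FZD1, 3051 for FZD7, 3755 for FZD4, 5341 for FZD3 and 5714 for FZD6. A length of 626 bases is too short to hold a whole Frizzled coding sequence. The comparison between tissues is made over the same bases, but the rank of FZD8 among the members depends on that stretch alone. Whether the models of the other members are complete was not checked. The order, shares and sums of all members therefore rest on the gene models used.

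FZD6 (ENSGALG00000016069) and FZD3 (ENSGALG00000016627) are the receptors most closely tied to planar polarity in the mouse, FZD6 in hair orientation and FZD3 in axon growth. FZD6 was at 10.7, 10.9 and 11.4 RPKM in ceca, against 8.14, 8.11 and 8.67 RPKM in interceca. The tissues did not overlap and each varied little. The log2 fold change of FZD6 was 0.39 ± 0.07 (SE, adjusted p = 0.00516, limma), on 1272 to 1445 reads in ceca and 737 to 1146 in interceca. FZD3, the least abundant member in ceca, was at 3.03, 3.49 and 3.43 RPKM in ceca and 2.86, 2.87 and 3.14 RPKM in interceca. Its libraries overlapped, and its log2 fold change of 0.14 ± 0.11 (SE, adjusted p = 0.4, limma) has a 95% interval of -0.12 to 0.40, which includes the value of FZD6.

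**Figure D2:**
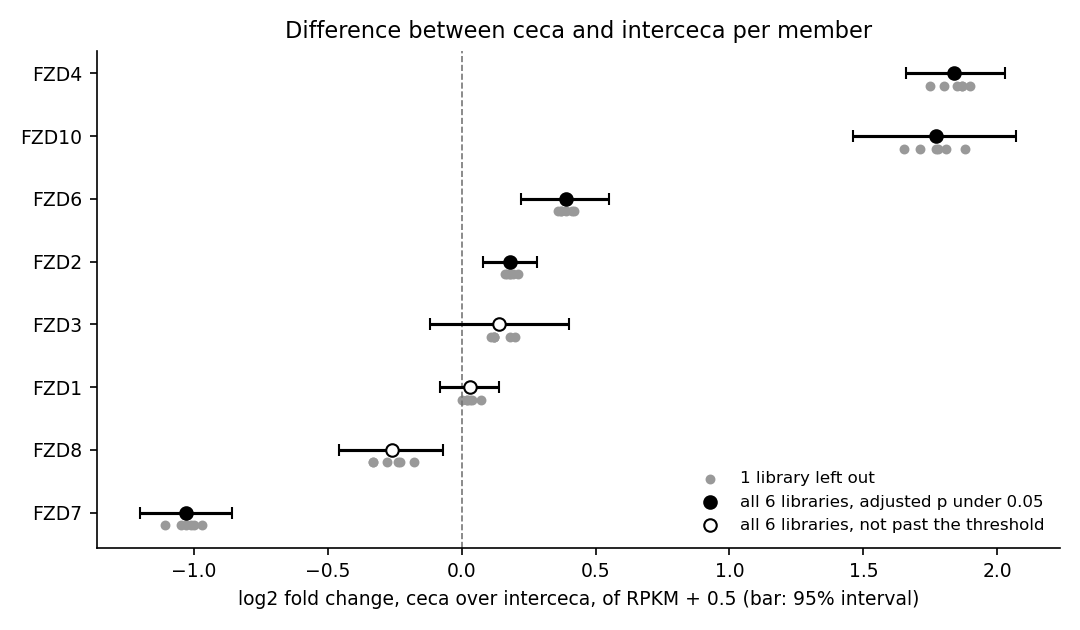
Log2 fold change of each Frizzled gene, ceca over interceca, of RPKM + 0.5. Large symbols are fits to all 6 libraries with their 95% interval (filled where the adjusted p is under 0.05) and small grey points are fits with 1 library left out. The grey points of FZD4 (1.75 to 1.90), FZD10 (1.65 to 1.88) and FZD7 (-1.11 to -0.97) lie far from 0, while those of FZD8 spread over -0.33 to -0.18.

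In the authors' deposited table the log2 fold change was 1.86 for FZD4, 1.96 for FZD10, 0.41 for FZD6, 0.18 for FZD2, 0.16 for FZD3, 0.03 for FZD1 and -1.04 for FZD7. The value of the authors' deposited table for FZD10 lies above 1.77, the one found with the pseudocount of 0.5, which pulls low genes towards 0.

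In ceca the order of mean RPKM was FZD8, FZD4, FZD1, FZD2, FZD7, FZD6, FZD10 and FZD3. The libraries of FZD4 and FZD1 overlapped there, as did those of FZD6 and FZD10, and other neighbours did not. In interceca the order was FZD8, FZD7, FZD1, FZD2, FZD4, FZD6, FZD3 and FZD10. There FZD7 overlapped with FZD1, and FZD3 with FZD10. FZD4 and FZD7 thus changed places, FZD4 next to the top in ceca and FZD7 next to the top in interceca. The ratio of FZD4 to FZD7 within a library was 2.20, 1.93 and 1.94 in ceca, against 0.317, 0.288 and 0.220 in interceca. This ratio was chosen after the values were seen and was not tested.

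The summed level of all 8 members was 514, 489 and 496 RPKM in ceca and 471, 476 and 510.3 RPKM in interceca. The tissues overlapped, at 499.8 ± 13.0 RPKM in ceca and 486 ± 21.6 RPKM in interceca (SD, n = 3 each, exact permutation test, two-sided, p = 0.4). Leaving FZD8 out for its short model, a choice made after seeing the data, the sum of the other 7 was 359, 354 and 358 RPKM in ceca and 304, 319 and 317 RPKM in interceca, and the tissues no longer overlapped.

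FZD4 made up 20.7%, 19.8% and 20.1% of the summed RPKM in ceca, against 6.18%, 6.34% and 4.80% in interceca. FZD7 made up 9.37%, 10.2% and 10.4% in ceca, against 19.5%, 22.0% and 21.8% in interceca. FZD10 took 2.07% ± 0.295 in ceca and 0.553% ± 0.072 in interceca (SD, n = 3 each). FZD8 took 28.6% ± 1.44 in ceca and 35.4% ± 2.49 in interceca, and FZD6 took 2.20% ± 0.111 in ceca and 1.71% ± 0.0168 in interceca. FZD2 took 17.3% ± 0.262 in ceca and 15.7% ± 0.806 in interceca, but the tissues overlapped with FZD8 left out of the sum (24.2% in ceca and 24.3% in interceca). Each of these 6 shares did not overlap between tissues, while the RPKM of 44.1% of all genes tested did not overlap. Each had p = 0.1 in an exact two-sided permutation test, the smallest p that 3 libraries against 3 can give, and 0.15 adjusted over the 9 quantities tested. Shares within a library add up to a fixed whole, so the 6 are not separate results. The shares of FZD1 (19.0% in ceca and 19.2% in interceca) and FZD3 (0.665% in ceca and 0.609% in interceca) overlapped, with exact p-values of 0.8 and 0.4. With FZD8 left out, FZD1 took 26.6% ± 1.5 in ceca and 29.7% ± 0.732 in interceca, with no overlap.

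**Figure D3:**
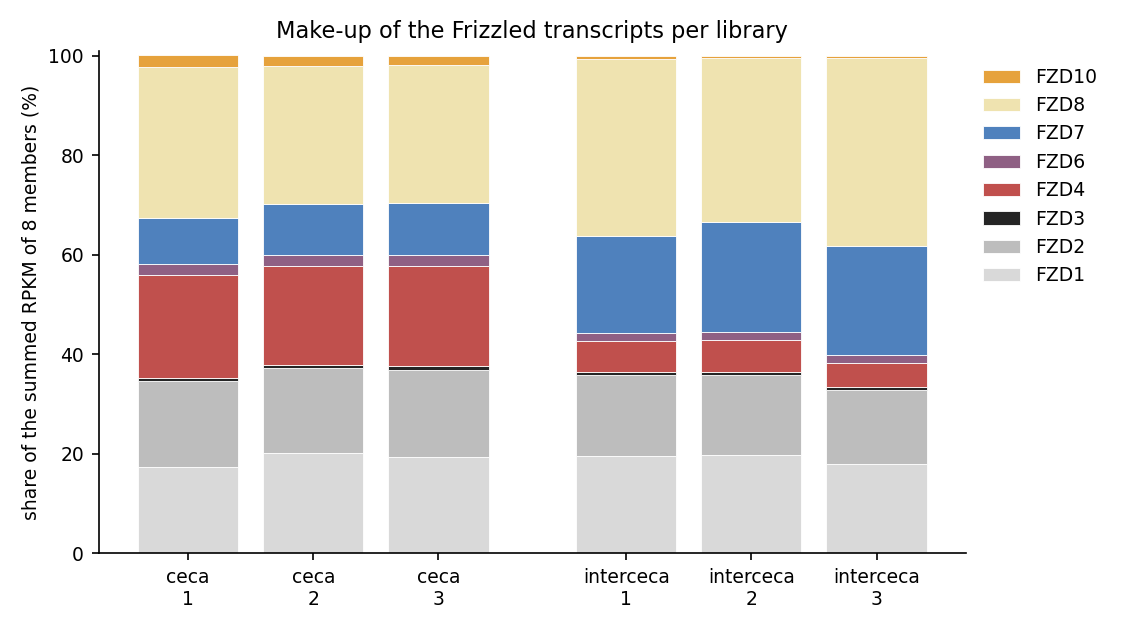
Stacked bars of the percentage of the summed Frizzled RPKM taken by each of the 8 members in every library, ceca libraries left and interceca libraries right. The FZD4 segment is 19.8% to 20.7% in ceca and 4.80% to 6.34% in interceca, and the FZD7 segment is 9.37% to 10.4% in ceca and 19.5% to 22.0% in interceca.

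By subfamily, FZD4 and FZD10 together came to 118, 107 and 109 RPKM in ceca, against 32.0, 32.9 and 26.9 RPKM in interceca. FZD1, FZD2 and FZD7 together came to 227, 232 and 235 RPKM in ceca, against 261, 276 and 279 RPKM in interceca. FZD3 and FZD6 together came to 13.7, 14.4 and 14.8 RPKM in ceca, against 11.0, 11.0 and 11.8 RPKM in interceca. None of the 3 sums overlapped between tissues, while 44.1% of all single genes tested did not overlap. FZD4 made up most of the sum with FZD10, and FZD6 most of the sum with FZD3. Of FZD1, FZD2 and FZD7, only FZD7 was lower in ceca. These sums were added after the values were seen and were not tested.

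For each member the genes with the most similar profile were sought among 7879 tested genes with a symbol and a mean of at least 5 RPKM. Likeness was the root mean square difference, in log2 units over the 6 libraries, between profiles centred on their own means. TSHZ1, a zinc finger transcription factor, lay nearest to FZD4 at 0.049, with 27.7 RPKM in ceca and 7.16 RPKM in interceca. ZBTB7C and cdermo-1, the chick homologue of the mesenchymal factor TWIST2, followed at 0.063 and 0.073. For FZD10 the nearest genes were cdermo-1 at 0.109, FZD4 itself at 0.119, and DACT2, which encodes a Dishevelled-binding protein, at 0.127. Among pairs of members FZD1 and FZD3, neither of which passed the threshold, were closest at 0.074, and FZD4 and FZD7 were farthest apart at 1.445. FZD7 was nearest to FBLIM1, a filamin-binding adaptor, at 0.047, and then to ALDH9A1 at 0.065 and ENTPD1 at 0.067. FBLIM1 was at 6.76 RPKM in ceca and 15.0 RPKM in interceca.

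Only 1.78%, 2.1% and 6.66% of the genes tested changed more than FZD4, FZD10 and FZD7. The closer neighbours of the members with smaller changes thus follow from the measure and are not a result about them. The neighbours of FZD4 (log2 fold change 1.78 to 1.89), FZD10 (1.8 to 1.88) and FZD7 (-1.1 to -0.97) changed about as much as those members. Their likeness is therefore not a result apart from the fold changes given above. FZD6 was nearest to FAM171A1 and H2AFY, both at 0.032, and FBXO30 at 0.038. FZD2 was nearest to TPRA1 and TCEB1, both at 0.019, and TAF4 at 0.023. FZD8 was nearest to XRCC3 at 0.032, MRPS15 at 0.046 and OTUD3 at 0.051. FZD3 was nearest to UBXN6 at 0.012, LMBR1 at 0.020 and SMNDC1 at 0.021, and FZD1 to DMAP1 at 0.016 and to PDCD6IP and LYAR, both at 0.017.

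Among the ligands that Frizzled receptors bind, 7 of the 18 listed genes passed the filter, of which 3 were higher in ceca (WNT2B, WNT5A and WNT11) and 4 did not pass the threshold. WNT11 reached the filter in ceca alone, so it had to differ. Among the 6 ligands without it 2 were higher, against 13.5% of all genes tested, with a median log2 fold change of 0.43. With it the median was 0.67, and the summed level of all 18 was 311 to 354 RPKM in ceca and 136 to 177 RPKM in interceca, with no overlap. WNT7B, WNT9b, Wnt10a and Wnt3 were listed at 0 in all 6 libraries. WNT2B, a canonical ligand, was at 39.5, 54.4 and 49.6 RPKM in ceca, against 9.56, 13.2 and 11.4 RPKM in interceca (log2 fold change 2.03 ± 0.14, adjusted p = 4.43e-05, limma), and WNT11 was low in both tissues, at 1.97 ± 0.231 RPKM in ceca and 0.521 ± 0.0466 RPKM in interceca (1.27 ± 0.16). WNT5A, a mostly non-canonical ligand, made up most of that sum, at 264 ± 17.1 RPKM in ceca and 123 ± 18.5 RPKM in interceca (SD, n = 3 each, 1.11 ± 0.10). NDP, which encodes norrin, the ligand particular to FZD4 among the Frizzled receptors, was at 3.50 ± 1.19 RPKM in ceca and 4.03 ± 1.78 RPKM in interceca and did not pass (log2 fold change -0.15 ± 0.31, adjusted p = 0.751, limma). TSPAN12, a tetraspanin that serves FZD4 in norrin signalling, was lower in ceca, at 22.2 ± 1.33 RPKM against 36.1 ± 1.14 RPKM in interceca (-0.69 ± 0.06, adjusted p = 1.18e-04, limma), so it went the other way from FZD4. RECK and ADGRA2, which form a receptor complex with Frizzled for WNT7 ligands, had log2 fold changes of 0.22 ± 0.07 and 0.22 ± 0.11. ADGRA2 did not pass, and RECK passed with all libraries (adjusted p = 0.0408) but in none of the 6 fits that left a library out (0.0547 to 0.113), in a range of 0.0197 to 0.113.

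Of the 12 co-receptors and other surface partners tested, the calls were 4 for higher in ceca (LRP6, ROR2, RECK and GPC6), 3 for lower (GPC4, TSPAN12 and RYK) and 5 that missed the threshold, with a median log2 fold change of 0.14. Over all genes tested 13.5% were called higher and 14.1% lower. LRP6, the canonical co-receptor, was at 9.86 ± 0.794 RPKM in ceca and 7.19 ± 0.408 RPKM in interceca (log2 fold change 0.43 ± 0.09, adjusted p = 0.00867, limma), while LRP5 did not pass (-0.20 ± 0.11). The heparan sulphate proteoglycan GPC4 was lower, at 129 ± 2.01 RPKM in ceca and 206 ± 11.7 RPKM in interceca (-0.68 ± 0.05), and the WNT5A receptor ROR1 (49.2 RPKM in ceca and 52.1 RPKM in interceca) and PTK7 (98.8 RPKM in ceca and 93.9 RPKM in interceca) did not pass. RYK was lower in ceca, at 45.4 ± 1.96 RPKM against 59.9 ± 1.12 RPKM in interceca (-0.40 ± 0.05). ROR2, another WNT5A receptor, was higher (0.26 ± 0.06, adjusted p = 0.0181, limma), but missed the threshold without ceca replicate 1 (0.0562) or without interceca replicate 3 (0.06), and its range was 0.00666 to 0.06. GPC6 was at 6.53 ± 0.614 RPKM in ceca and 4.75 ± 0.835 RPKM in interceca (adjusted p = 0.0466, limma), and its adjusted p ran from 0.0134 to 0.149, with 4 of the 6 fits that left a library out past 0.05.

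Another list holds genes that set how long a Frizzled receptor stays at the surface. Of 8 tested, 6 missed the threshold, 1 rose and 1 fell, a share of calls near the 27.5% of all genes tested, with a median log2 fold change of 0.12. ZNRF3 and RNF43, the ubiquitin ligases that remove Frizzled proteins from the membrane, were at 7.0 ± 0.405 and 1.33 ± 0.343 RPKM in ceca and at 6.14 ± 0.503 and 1.33 ± 0.193 RPKM in interceca, with adjusted p of 0.206 and 0.981 in limma. RSPO3, a secreted protein that blocks these ligases, was the gene that was higher, at 47.6 ± 4.95 RPKM in ceca and 8.43 ± 2.31 RPKM in interceca (log2 fold change 2.46 ± 0.18). LGR5, an R-spondin receptor, was the gene that was lower (-0.62 ± 0.11).

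**Figure D4:**
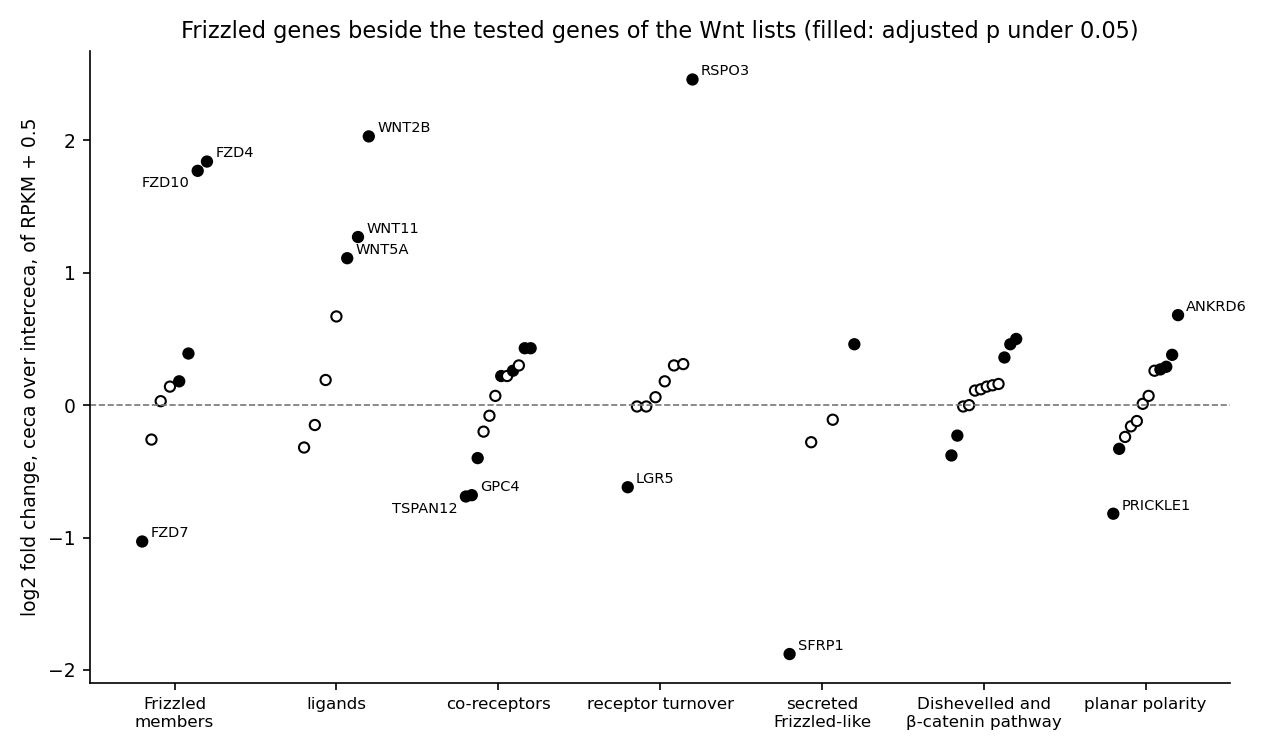
Log2 fold change, ceca over interceca, of RPKM + 0.5 for the 8 Frizzled genes and for the tested genes of 6 lists of Wnt pathway genes, 1 point a gene, filled where the adjusted p is under 0.05. FZD4 (1.84) and FZD10 (1.77) lie just below WNT2B (2.03) and RSPO3 (2.46), and the lowest points are SFRP1 (-1.88) and FZD7 (-1.03).

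The secreted Frizzled-related proteins carry a cysteine-rich domain like that of the receptors and bind Wnt outside the cell. Of 4 tested, SFRP2 was higher in ceca, SFRP1 was lower and 2 did not pass, against 13.5% called higher and 14.1% called lower over all genes tested. SFRP1 was at 41.4 ± 12.0 RPKM in ceca and 151 ± 24.9 RPKM in interceca (-1.88 ± 0.20, adjusted p = 0.000299, limma), and SFRP2 at 80.0 ± 2.41 RPKM in ceca and 58.1 ± 3.55 RPKM in interceca (0.46 ± 0.05, adjusted p = 0.00058, limma). FRZB, another of these genes, was at 22.9 ± 2.66 RPKM in ceca and 27.9 ± 3.23 RPKM in interceca and did not pass (adjusted p = 0.0937, limma).

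Of 12 genes of Dishevelled and the β-catenin pathway tested, 7 missed the threshold, 3 rose and 2 fell, against 13.5% called higher and 14.1% called lower over all genes tested, with a median log2 fold change of 0.13. Lef-1, a relative of TCF7L2, was not among the 12. It was higher in ceca (log2 fold change 1.08 ± 0.09, adjusted p = 8.95e-05, limma), a larger change than in any of them. The calls of APC, CTNNB1 and TCF7L2 depended on single libraries. CTNNB1, which encodes β-catenin, was at 684 ± 33.7 RPKM in ceca and 800.2 ± 22.9 RPKM in interceca (-0.23 ± 0.06, adjusted p = 0.0194, limma), and its partner TCF7L2 at 35.4 ± 3.35 RPKM in ceca and 46.1 ± 4.62 RPKM in interceca (-0.38 ± 0.09). Both calls were lost without ceca replicate 3, with adjusted p of 0.0892 and 0.064, and without 1 other library each, interceca replicate 2 for CTNNB1 (0.0847) and ceca replicate 2 for TCF7L2 (0.0577), in ranges of 0.00206 to 0.0892 and 0.0008 to 0.064. The Dishevelled genes DVL1 (0.16 ± 0.08) and DVL3 (0.12 ± 0.05) did not pass, with 8.14 and 74.6 RPKM in ceca and 7.25 and 68.4 RPKM in interceca. AXIN2, a feedback gene of the canonical pathway, was higher at 17.1 ± 1.10 RPKM in ceca and 12.0 ± 1.49 RPKM in interceca (log2 fold change 0.50 ± 0.10), as was the β-catenin cofactor PYGO1 (0.46 ± 0.06). APC, of the complex that degrades β-catenin, was the third that rose (0.36 ± 0.10, adjusted p = 0.033, limma), and its adjusted p ran from 0.00755 to 0.107, with 4 of the 6 fits that left a library out past 0.05.

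Of 12 planar polarity genes tested, 6 missed the threshold, 4 rose and 2 fell, against 13.5% called higher and 14.1% called lower over all genes tested, with a median of 0.04. ANKRD6 (Diversin) was higher (0.68 ± 0.13), and PRICKLE1 (-0.82 ± 0.12) and the kinase gene MAPK8 (-0.33 ± 0.05) were lower. CELSR1, a polarity cadherin, did not enter the test, with 0.332 RPKM in ceca and 1.03 RPKM in interceca. VANGL2 was at 36.8 ± 1.05 RPKM in ceca and 30.5 ± 2.25 RPKM in interceca (0.27 ± 0.06, adjusted p = 0.0149, limma), with an adjusted p of 0.0501 once ceca replicate 2 was left out and a range of 0.00605 to 0.0501. INTU (0.38 ± 0.09, adjusted p = 0.0196) and INVS (0.29 ± 0.09, adjusted p = 0.0392), which link polarity to the primary cilium, also rose in limma. INTU passed in 3 of the 6 fits that left a library out and INVS in none of them, with adjusted p of 0.017 to 0.0698 and 0.0121 to 0.138 over all alternatives.

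Markers of other cell types that the dissected pieces can hold were also measured, and their part in the Frizzled differences was not tested. The counts below stand against 13.5% called higher in ceca and 14.1% called lower over all genes tested. Of the 6 mesothelial markers tested, 4 rose in ceca, 1 missed the threshold and 1 fell, MSLN, which reached the filter in interceca alone, with a sum of 385 to 439.5 RPKM in ceca and 179.8 to 229.6 RPKM in interceca. Of the 6 mesenchymal markers tested, 1 rose, 2 fell and 3 missed the threshold, with a sum of 1216 to 1295 RPKM in ceca and 1306 to 1428 RPKM in interceca. Of 6 markers of enteric neural crest and glia, 3 missed the threshold and 3 fell, among them S100B, which reached the filter in interceca alone, with a sum of 3.05 to 11.3 RPKM in ceca and 16.7 to 19.8 RPKM in interceca. Of the 6 neuronal markers tested, 2 fell (NEFL and NEFM) and 4 missed the threshold, among them TUBB3, at 764.6 RPKM in ceca and 855.4 RPKM in interceca (adjusted p = 0.113, limma), which made up most of a sum of 786 to 859 RPKM in ceca and 928 to 997 RPKM in interceca. The call of NEFL was lost without ceca replicate 3 (adjusted p = 0.0572, limma), and that of NEFM without ceca replicate 1 or 3 or interceca replicate 1 or 3 (0.0515 to 0.0665). Of the 4 leukocyte markers tested, LCP1 rose, at 20.0 RPKM in ceca and 5.62 RPKM in interceca, and 3 missed the threshold. The leukocyte markers had a median of -0.09 on the log2 scale and a sum of 18.5 to 35.2 RPKM in ceca and 12.2 to 15.8 RPKM in interceca. KRT19 stands among both the epithelial and the mesothelial markers. Red blood cell genes, of which HBAA, HBAD and SLC4A1 were listed at 0, summed to 153.9 to 173 RPKM in ceca and 117 to 146 RPKM in interceca. Most of that was HBE, at 142.7 RPKM in ceca and 112.6 RPKM in interceca, which missed the threshold (adjusted p = 0.0764, limma), as did HBE1 and HBG2.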

How the data were processed

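The submitters' processing notes name the tools bcl2fastq, STAR, HTSeq and edgeR and the build galGal4, per the labels. Their versions and settings, the annotation, the use of strand and the treatment of reads shared by similar genes were not given in the sources used here, although the kit was strand-specific per the labels' protocols, so genes with an antisense or near-identical partner are uncertain. The authors deposited RPKM per gene and library, and the 6 per-library files equal the series table. That series table, as deposited, adds the authors' log2 ratio (ceca over interceca), raw and adjusted p-values and a -log10 column of them. The single unnamed row, which sums each column, was left out.

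RPKM values are whole multiples of a step, which gave back whole reads (tolerance 0.01 read, and gene lengths within 0.05 base of whole) for 95.4% of the 14080 genes above 0 and 99.1% of the genes tested. Exact 0 values are described as listed at 0. Precision is limited by counting and by 3 libraries per tissue. The filter kept the 10678 genes reaching 1 RPKM in 3 or more libraries, and limma 3.58.1 (R 4.3.3) was fitted to log2(RPKM + 0.5) with tissue as its single term (trended eBayes, two-sided, 4 residual and 3.85 prior degrees of freedom). The pseudocount of 0.5 understates the change of low genes. Summed levels and shares used exact permutation tests (scipy 1.17.1, Python 3.11.15, pandas 2.3.3, numpy 2.4.6), and figures matplotlib 3.10.9. The fit was also run on simulated reads with a fixed dispersion of 0.005 and no pairing of libraries. It recovered 53 of 67 genes changed 1.5-fold, and 10 of its 195 calls were false. Changes as small as those of FZD2 and FZD6 were not simulated.

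Members and lists were chosen with earlier results of these data known. The genes named are all FZD genes, the 3 most alike in profile for each, and, from the Wnt lists, up to 4 called genes per direction with the smallest p and the partners of Frizzled receptors. ROR1, PTK7, FRZB, Lef-1 and the single cell type markers were named after their values were seen, as were the counts without genes that reached the filter in 1 tissue alone. Gene names came from the files. Of 22 ligands 18, of 14 co-receptors 13, of 11 turnover genes 10, of 19 transducers 14 and of 18 polarity genes 14 were listed once, and AXIN1, listed more than once, was left out.

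Replicate numbers 1 to 3 are shared by both tissues. Deviations from the tissue means correlated across genes at 0.364, 0.227 and 0.213 between same-numbered libraries. Between differently numbered libraries the correlations ran from -0.238 to 0.0314. Deviations within a tissue cancel out, so these correlations are not independent of each other. A pairing by number was read from these values, was not tested and is not given in the labels. The main fit and the permutation tests did not use it. It entered only as the replicate block, an alternative in which FZD8 passed (adjusted p = 0.0235, limma, against 0.0548 in the main fit). Alternatives changed the pseudocount, filter, scaling, trend, weights, test and block, or left out 1 library.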

Additional observations from a re-analysis of the deposited data

How the results depend on the processing

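FZD4, FZD6, FZD7 and FZD10 kept their direction and passed in all 16 alternatives. With the filter at 5 RPKM, however, FZD10 entered through ceca alone (8.78 to 12.1 RPKM, against 2.41 to 2.87 RPKM in interceca). It had to differ there, so that pass adds nothing for FZD10. FZD2 passed in 15, with log2 fold changes of 0.16 to 0.21 when 1 library was left out. Several of these passes lay close to the threshold. The adjusted p of FZD2 in limma was 0.0499 without ceca replicate 1, 0.049 without interceca replicate 2 and 0.0475 without the trend. FZD1 and FZD3 passed in none, FZD3 being too low for the filter at 5 RPKM. FZD8 passed with library weights (-0.26, adjusted p = 0.0361), limma-voom (-0.27) and the replicate block (-0.26), and ranged over -0.33 to -0.18 when 1 library was left out. The count of members lower in ceca was therefore 2 with library weights, 2 with limma-voom and 2 with the replicate block, and 1 to 2 when 1 library was left out. With the replicate block as a second term 1879 genes were higher in ceca and 1888 lower, against 1439 and 1502 without it, and among the members the block changed no other call. Leaving out 1 library gave 900 to 1286 genes higher and 999 to 1316 lower, the lowest without ceca replicate 3 and without interceca replicate 2. Scaling by median of ratios or quantiles moved the median log2 fold change by -0.00299 and -0.00396.

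The difference in the share of FZD1 ran from -0.739 to 0.647 percentage points when 1 library was left out. With FZD8 out of the sum, the share of FZD2 differed by -0.0785 and that of FZD3 by -0.0141 percentage points. Genes near 0 changed sign. RNF43 was at 0.26 with quantile normalization and 0.02 with library weights, and ranged over -0.11 to 0.15 when 1 library was left out. On the same terms NDP ranged over -0.40 to 0.14, DMAP1 over -0.01 to 0.04 (-0.02 with quantiles), PDCD6IP over -0.03 to 0.04 (0.00 with quantiles and 0.01 with weights) and WLS over -0.03 to 0.02 (0.01 with quantiles and 0.00 with weights). The causes were not tested. A sum with Frizzled genes listed by identifier alone was not run, because the reference table pairs no such identifiers. At 80 to 98 reads per interceca library, FZD10 is the member most limited by depth.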

Other observations

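A further list of genes around the Frizzled receptors was set after the data were seen, and 13 of its 18 genes were listed once. Of these, 7 rose in ceca, 3 fell and 3 missed the threshold, against 13.5% called higher and 14.1% called lower over all genes tested. The list includes DACT2, already found among the profiles nearest to FZD10, so these counts only describe the genes chosen. SMO, the Hedgehog transducer and the nearest relative of the Frizzled receptors, was at 84.7 ± 1.96 RPKM in ceca and 79.6 ± 2.62 RPKM in interceca (SD, n = 3 each) and did not pass (log2 fold change 0.09 ± 0.04, adjusted p = 0.18, limma). CPZ, a carboxypeptidase with a Frizzled-type domain, was higher in ceca, at 4.60 ± 0.786 RPKM against 2.56 ± 0.159 RPKM in interceca (0.73 ± 0.14). WLS, which carries Wnt proteins to the cell surface, was at 109.5 ± 1.38 RPKM in ceca and 109.8 ± 3.18 RPKM in interceca (adjusted p = 0.962, limma).

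Among genes whose products bind Frizzled or Dishevelled, DACT2 was higher in ceca, at 29.1, 25.6 and 24.8 RPKM against 6.58, 6.82 and 7.11 RPKM in interceca (1.88 ± 0.08), and its relative DACT1 by less (0.51 ± 0.08). NOTUM, a secreted enzyme that inactivates Wnt proteins, was higher in ceca (1.48 log2 units), as was the Dishevelled-binding feedback gene NKD1 (0.44 ± 0.08). The calls of COL18A1 (adjusted p = 0.0165, limma, 0.00649 to 0.0544 over the alternatives) and MAGI3 (0.0328, and 0.00973 to 0.11) were lost when single libraries were left out, for COL18A1 without ceca replicate 2 (0.0526) or interceca replicate 3 (0.0544), and for MAGI3 in 5 of the 6 such fits. SDC4, a syndecan that works with FZD7 in the Xenopus embryo, was lower, at 12.4, 12.1 and 12.0 RPKM in ceca against 26.4, 28.2 and 31.3 RPKM in interceca (-1.20 ± 0.07). SHISA2 and SHISA3, of a family that holds Frizzled proteins in the endoplasmic reticulum, had log2 fold changes of -0.36 ± 0.06 and -1.52 ± 0.19, SHISA3 at 0.608 ± 0.209 RPKM in ceca and 2.64 ± 0.327 RPKM in interceca. SHISA3 reached the filter in interceca alone, so it had to differ. Without it 2 of the 12 other genes fell, against 14.1% called lower over all genes tested.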
